A study of Vitis vinifera with 171 samples.

Results

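The probes described here are the 200 gene probes, of 117999 on the array, with the highest score in 2008 for an early rise followed by a level course. The score was the mean rise (mid-ripening minus veraison) less the absolute change to harvest. Triplicates were averaged in each vineyard and the 11 vineyards after that. A large rise can thus offset a change to harvest. The 200 probes belong to 95 of the 29552 probe sets rebuilt from the probe numbers. A probe set is the probes that represent the same gene, 4 for most genes. Of these sets, 31 with 78 of the member probes could be named, and 64 with 122 member probes could not. The member probes of a set share a transcript and are not independent.

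The samples were berry pericarp (berries without seeds) of Vitis vinifera cv Corvina clone 48, so that all groups share a cultivar and clone and differ in site, year and stage. Berries were picked at veraison, mid-ripening and harvest in vineyards of the Bardolino, Valpolicella and Soave areas near Verona. AM (Soave), CS (Bardolino), MN and PSP (both Valpolicella) were sampled in 2006, 2007 and 2008, and 7 more vineyards (BA, BM, CC, FA, GIV, PM and VM) in 2008 only. Each of the 57 combinations of vineyard, year and stage has 3 arrays, 171 in all, and in each year a stage was collected on the same day in all vineyards.

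Veraison is the onset of ripening, when the berry softens, colors and starts to store sugar. Softening and renewed expansion of the pericarp involve enzymes that loosen the primary wall, among them the xyloglucan endotransglucosylase/hydrolases (XTHs), which cut xyloglucan chains and rejoin them to other chains. Ripening grapes are also known to build up pathogenesis-related proteins such as glucanases, chitinases and thaumatin-like proteins.

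Levels are log2 intensities, so that 1 unit is a doubling of the signal, and a gene's level averages the linear intensities of its probe set before the logarithm is taken. Array medians of the linear intensity lay between 432 and 483. The highest member value was 53472 against 63131 for the brightest probe, and 0 member values lay within 1 percent of that maximum. Of 18 named pericarp marker sets (thaumatin, osmotin, expansin, MYBA, grip22 and RD22 words in their annotation), 16 to 18 exceeded the 95th percentile of the random control probes in every year and stage. Signal was also measured for the 4 named seed marker sets (oleosin, legumin and globulins), although seeds had been removed. Their summed level ran from 13.29 to 14.89 over all groups, and its part in the results below was not tested. In bulk tissue, fewer cells of a type and less RNA per cell cannot be told apart.

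The 2008 values chose the members and are given as a description. The median member lay at 7.93 at veraison, 11.04 at mid-ripening and 10.98 at harvest, against 8.79, 8.85 and 8.85 for all gene probes. The rise had a median of 2.92 (from 2.12 to 4.74) in the members and 0.00 over all gene probes. From mid-ripening to harvest, 83 members were higher, 117 were lower and 129 moved by at most 0.5, with a median change of -0.21 (from -1.06 to 1.96). The score ran from 3.91 for VitusP00233220 to 2.10 for the last 3 members, and the next 3 probes outside the list had 2.09. The list therefore has no gap at its end. Without any 1 of the 11 vineyards, between 173 and 190 of the 200 probes would have been chosen again, and 168 when only the 7 vineyards sampled in 2008 alone were used.

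Most of the 200 probes rose to mid-ripening in 2006, and fewer rose in 2007, years that had no part in their choice. In 2007, 108 of the 200 (54.0%) were higher at mid-ripening than at veraison at an adjusted p below 0.05, where 8.35% of all gene probes were, and 3 members were lower. In 2006, 166 (83.0%) were higher, against 7.05% of all gene probes, and no member was lower. Lower calls at mid-ripening were not counted over all gene probes, so the lower counts stand without a comparison. The median difference over the members was 1.05 in 2007 and 1.84 in 2006, and over all gene probes 0.00 in 2007 and 0.02 in 2006. The estimate was above 0 for 163 members in 2007 and for 199 in 2006. The tests came from limma with the vineyard as the unit, with 4 vineyards a year.

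Of the 200 probes, 102 were called higher at mid-ripening in both years, where 2.44% of all gene probes were. Another 6 were called in 2007 only (5.92% of all gene probes), 64 in 2006 only (4.61%) and 28 in neither year. All 4 vineyards' mid-ripening values lay above all 4 veraison values for 63 members (31.5%) in 2007, where 3.26% of all gene probes showed this, and for 150 (75.0%) in 2006, where 7.61% did. The 180 other probes of the same 95 sets, which did not score among the top 200, were tested in the same fit. Of these, 82 were called higher in 2007 and 121 in 2006, with a median difference of 0.82 and 1.29.

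By vineyard, the median of the 200 differences between mid-ripening and veraison was 1.36 in AM, 0.80 in CS, 1.15 in MN and 0.63 in PSP of 2007, with 135 to 177 of the probes higher at mid-ripening, and 2.13, 1.69, 2.19 and 1.67 in 2006, with 187 to 197 higher. The vineyards averaged 0.98 ± 0.33 in 2007 and 1.92 ± 0.28 in 2006 (SD, n = 4), and all 4 values of 2007 lay below those of 2006. The median member lay at 8.96 to 9.52 at veraison, 10.03 to 11.03 at mid-ripening and 10.91 to 11.41 at harvest in 2007. In 2006 it lay at 8.42 to 9.93, 11.26 to 11.88 and 11.22 to 11.59. The mid-ripening medians of the years did not overlap, whereas the veraison medians did. From mid-ripening to harvest, the median change was -0.05 in AM, 0.37 in CS, 0.92 in MN and 0.56 in PSP of 2007, and -0.52, -0.31, 0.29 and 0.23 in 2006, so that AM was lowest and MN highest in both years.

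From mid-ripening to harvest, no member was called in 2006, and some rose in 2007. In 2007, 24 members (12.0%) were higher at harvest than at mid-ripening, against 2.17% of all gene probes, and 0 were lower, against 2.21%. In 2006, 0 members were called in either direction, where 0.109% of all gene probes were higher and 0.147% were lower. An unadjusted p below 0.05 was found for 21 of the 200 members and for 11479 of the 117999 gene probes, a similar share. The median change to harvest was 0.37 in 2007 and -0.03 in 2006. In 2007, 32 members (16.0%) had all 4 harvest values above all 4 mid-ripening values, against 2.31% of all gene probes. Across both years, 90 members were called higher at mid-ripening in 2007 and in 2006 with no call to harvest in either year, where 1.91% of all gene probes met this. Another 12 members were called higher at mid-ripening in 2006 only and then higher at harvest than at mid-ripening in 2007, against 0.797% of all gene probes. The number of calls to harvest in 2007 depended on single vineyards: 4.0% of the members were called without MN, 5.0% without CS, 9.0% without AM and 11.5% without PSP. Shares over all gene probes in these fits are not given here, so a change in the members cannot be told from a change over the whole array.

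The rise itself differed between the years for a minority of probes, always in the same direction. The interaction of stage and year was called for 25 members (12.5%) with a smaller rise in 2007 than in 2006, against 0.768% of all gene probes, and for 0 with a larger one, against 0.748%. The median of the difference, rise in 2007 minus rise in 2006, was -0.64, and 46 members had a larger estimate in 2007. With 3 vineyards left in each year, the share called was 9.0% without PSP, 8.0% without AM, and 0% without CS or without MN, where the number of calls over all gene probes was also down, at 0 without CS and 7 without MN against 906 with all vineyards. The random control probes differed too, their 95th percentile running from 5.80 to 8.55 at mid-ripening in 2007 and from 6.24 to 7.62 in 2006, and after subtraction of each array's random-probe median the share with a smaller rise was 6.0%.

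At veraison, the members were neither generally higher nor lower in 2007. Of the 200, 26 (13.0%) were lower at veraison in 2007 than in 2006, against 7.52% of all gene probes, and 13 (6.5%) were higher, against 3.13%. The median difference (2007 minus 2006) was -0.01 at veraison, -0.73 at mid-ripening and -0.24 at harvest. Only the veraison levels were among the planned comparisons. In AM, CS and MN, the veraison arrays of 2006 and 2007 lie on different slides, so that slide and year cannot be told apart there. The summed level of the 18 pericarp marker sets also differed at veraison, at 14.26 to 16.55 in 2007 and 16.58 to 17.15 in 2006, and its part in these differences was not tested. Without CS, 1.0% of the members were called lower and 2.0% higher at veraison in 2007. Without AM 6.5% and without PSP 6.0% were called lower, and without PSP 3.5% were called higher. For these fits too, the shares over all gene probes are not given, so the changes need not be particular to the members.

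Counted by gene, 53 of the 95 sets were higher at mid-ripening than at veraison in 2007, where 10.6% of all probe sets were, and 77 in 2006, where 11.8% of all sets were. In 2007, 18 of the 95 sets were higher at harvest than at mid-ripening (4.24% of all sets), and 17 had a smaller rise than in 2006 (2.1% of all sets). Of the 31 named sets, 11 rose in 2007 and 26 in 2006, 10 of them in both years, and 11 had a smaller rise in 2007. Of the 64 unnamed sets, 42 rose in 2007 and 51 in 2006, 38 of them in both years, and 6 had a smaller rise in 2007. Names could be given only to genes that the study lists in tables selected on these arrays, largely for differences between years, vineyards or stages, so the named sets are not a neutral sample of the members.

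By the words in their annotation, the named sets were 11 cell wall genes, 2 defense genes, 2 stress and chaperone genes, 7 other annotated genes and 9 genes with no annotation. By these words, no named set with a member fell into the lists for flavonoids, terpenes, sugar and transport, hormones, transcription factors or signalling. The words miss some genes: the carrier VIT_18s0001g07320, the glucanase VIT_06s0061g00100 and BAG5 (VIT_01s0146g00150) were counted as other annotated. With 64 of the 95 sets unnamed, an empty list does not show that a function is absent from the members. Of the 264 probes of the 66 named sets in the cell wall list, 34 of them members, 31 were called higher and 61 lower at mid-ripening in 2007, and 67 higher and 27 lower in 2006, with a median difference over the list of -0.15 in 2007 and 0.13 in 2006. Over all gene probes, 8.35% were called higher in 2007 and 7.05% in 2006, and lower calls were not counted.

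XTH genes were the largest named group, with 10 sets and 33 member probes, and all 10 lie in the cluster of numbered genes VIT_11s0052g on chromosome 11. All 10 rose to mid-ripening in 2006, by 0.89 to 2.30, and 6 rose in 2007, by 0.59 to 1.48. None was called between mid-ripening and harvest in either year. The 11th named XTH set of that cluster, VIT_11s0052g01330, holds no member but rose by 1.26 in 2007 and 2.07 in 2006. Of the 6 named XTH sets without a member, that one was the only one called higher in either year, and 1 was lower in 2007 and 2 in 2006. These genes are close paralogs. The methods of the study state that probe sets of gene families were checked for specificity, and signal shared between neighbors was not tested here.

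The set of VIT_11s0052g01260, with 4 member probes, had a level course from mid-ripening to harvest in both years. In AM, CS, MN and PSP of 2007, its level was 12.06, 12.73, 12.18 and 12.45 at veraison, 13.29, 12.76, 13.07 and 12.65 at mid-ripening and 13.33, 13.05, 13.20 and 13.16 at harvest. In 2006, the 4 vineyards had 11.26, 11.82, 11.43 and 11.79 at veraison, 13.52, 13.34, 12.82 and 13.49 at mid-ripening and 13.04, 13.07, 13.09 and 13.65 at harvest. The mid-ripening levels of the years overlapped, whereas each vineyard started higher at veraison in 2007. The rise was 0.59 ± 0.19 in 2007 (SE, adjusted p = 0.034) and 1.72 ± 0.19 in 2006 (adjusted p = 2.23e-05), and veraison in 2007 was 0.78 above veraison in 2006 (adjusted p = 0.0169). The difference of the rises was -1.13 ± 0.26 (adjusted p = 0.0311). In 2008, the lowest, median and highest of the 11 vineyards were 7.62, 9.15 and 11.16 at veraison, 11.53, 12.96 and 13.40 at mid-ripening and 10.91, 12.65 and 13.39 at harvest. The call for the rise in 2007 was lost without AM (0.38), MN (0.49), PSP (0.72) or replicate C (0.53), and that for the difference of the rises without CS (-1.01, adjusted p = 0.174), MN (-1.34, 0.0804) or PSP (adjusted p = 0.176), or without replicate A (-1.02, 0.0765).

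VIT_11s0052g01200, also with 4 member probes, rose in both years. In 2007, its level in AM, CS, MN and PSP was 10.79, 11.50, 9.06 and 10.09 at veraison, 12.65, 11.92, 11.92 and 10.55 at mid-ripening and 11.81, 12.09, 11.57 and 11.64 at harvest. The values of 2006 were 9.55, 9.84, 9.62 and 9.69 at veraison, 11.70, 11.50, 11.08 and 11.90 at mid-ripening and 11.13, 10.90, 11.48 and 12.29 at harvest. PSP at mid-ripening in 2007 lay below CS and AM at veraison, and in 2006 veraison and mid-ripening did not overlap. The rise was 1.40 ± 0.36 in 2007 (SE, adjusted p = 0.0122; 0.91 and not called without MN, 1.24 and not called without AM) and 1.87 ± 0.36 in 2006 (adjusted p = 0.00154). In 2008, the 11 vineyards ran from 6.30 to 9.92 at veraison (median 7.25), from 10.31 to 12.60 at mid-ripening (11.50) and from 9.76 to 12.24 at harvest (10.91).

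The set of VIT_11s0052g01310 had 11.05, 11.22, 10.18 and 11.05 at veraison in AM, CS, MN and PSP of 2007, 12.28, 11.10, 12.33 and 11.53 at mid-ripening and 12.05, 11.12, 12.07 and 11.96 at harvest. The same vineyards of 2006 had 10.83, 10.44, 10.38 and 10.89, then 12.66, 12.46, 11.26 and 12.51, then 12.07, 11.79, 11.50 and 12.48. CS was not higher at mid-ripening in 2007, and every vineyard was in 2006. The rise was 0.93 ± 0.28 in 2007 (SE, adjusted p = 0.0276) and 1.59 ± 0.28 in 2006 (adjusted p = 0.000922). The call for 2007 was lost without AM (0.83), MN (0.53), PSP (1.09) or replicate C (0.80).

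Of the other 7 XTH sets, VIT_11s0052g01180 had the largest rise, 1.48 ± 0.24 in 2007 (SE, adjusted p = 0.000992) and 2.30 ± 0.24 in 2006 (adjusted p = 1.91e-05), and it kept both calls without any 1 vineyard. VIT_11s0052g01190 rose by 1.25 in 2007 and 2.26 in 2006. VIT_11s0052g01340 rose by 0.71 in 2007 and 1.28 in 2006, and its call in 2007 was lost without AM (0.52), MN (0.58) or replicate C (0.66). The remaining 4 sets were called in 2006 only, with differences of 0.46 in 2007 and 1.88 in 2006 for VIT_11s0052g01300, 0.27 and 1.63 for VIT_11s0052g01320, 0.58 and 0.89 for VIT_11s0052g01270, and 0.29 and 0.97 for VIT_11s0052g01280. In 2 of them the difference of the rises was called, at -1.42 for VIT_11s0052g01300 (adjusted p = 0.0092) and -1.35 for VIT_11s0052g01320 (adjusted p = 0.0168). Both also started higher at veraison in 2007, by 1.34 and 1.14 (adjusted p = 0.00131 and 0.0144). Both differences of the rises lost their call without CS (-1.32 and -1.06) or without PSP (-1.32 and -1.28). The call in 2006 was lost for VIT_11s0052g01270 without AM (0.78) or CS (0.78), and for VIT_11s0052g01280 without CS (0.88).

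The 11th cell wall gene, the polygalacturonase VIT_04s0044g01420, belongs to the enzymes that cleave the pectin backbone. Its difference was -0.29 ± 0.22 in 2007 (SE, adjusted p = 0.347) and 0.96 ± 0.22 in 2006 (adjusted p = 0.00476), and it was 1.01 higher at veraison in 2007 than in 2006 (adjusted p = 0.00859). The rise differed between the years by -1.25 (adjusted p = 0.0372), a call lost without CS (-1.35), MN (-1.16), PSP (-1.02) or replicate A (-1.17) and after subtraction of the random-probe median (-1.29).

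PR1, a small secreted protein widely used as a marker of salicylic acid-dependent defense, and a pair of beta-1,3-glucanase genes, whose products hydrolyze callose and fungal wall glucans, had, with the unannotated VIT_06s0004g01990, the largest rises of the named genes in 2006. In 2007 none of these 4 sets was called at mid-ripening, and all 4 rose between mid-ripening and harvest. A rise to harvest was not confined to 2007. In 2008, PR1 moved up to harvest in every vineyard, by 0.01 in CS to 4.70 in BM. VIT_06s0004g01990 changed by -0.18 in CS and by 0.07 (FA) to 4.14 (MN) in the other vineyards. Both glucanase sets went down in some vineyards of 2008, among them CS and FA, and up in others, among them BM and MN. These changes of 2008 are given without a test.

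PR1 (VIT_03s0088g00710, with 1 of its 4 probes a member) stood at 4.95, 5.97, 7.50 and 8.75 at veraison in AM, CS, MN and PSP of 2007, at 5.24, 5.21, 6.85 and 6.95 at mid-ripening and at 9.47, 11.59, 11.55 and 9.12 at harvest. Its levels of 2006 were 6.06, 5.97, 6.18 and 5.98 at veraison, 14.13, 14.11, 12.25 and 9.53 at mid-ripening and 13.89, 13.99, 13.35 and 12.04 at harvest. Every vineyard was higher at harvest than at mid-ripening in 2007, without overlap, and PSP was lowest at mid-ripening in 2006. The difference from veraison to mid-ripening was -0.73 ± 0.74 in 2007 (SE, adjusted p = 0.496) and 6.46 ± 0.74 in 2006 (adjusted p = 3.19e-05). From mid-ripening to harvest in 2007 PR1 rose by 4.37 ± 0.74 (adjusted p = 0.00351; 4.26 and not called without MN). The rises differed by -7.19 ± 1.04 (adjusted p = 0.00502; -6.62 and not called without CS). The low values are close to background: the set exceeded the 95th percentile of the random control probes on 5 of 12 arrays at veraison, 4 at mid-ripening and 12 at harvest in 2007, and on 3, 11 and 12 arrays in 2006. Over the 11 vineyards of 2008, its lowest, median and highest level was 5.64, 6.99 and 8.76 at veraison, 7.68, 11.94 and 13.47 at mid-ripening and 10.71, 13.49 and 14.14 at harvest. The name of this set and that of VIT_06s0004g01990 rest on stage averages, a weaker match than for the other genes.

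The glucanase VIT_06s0061g00120, with 4 member probes, had 7.56, 7.95, 8.69 and 10.09 at veraison in AM, CS, MN and PSP of 2007, 7.63, 7.29, 7.28 and 8.96 at mid-ripening and 9.43, 11.88, 10.47 and 9.20 at harvest. In 2006 it had 6.35, 6.36, 6.97 and 6.12 at veraison, 12.73, 11.90, 11.21 and 8.01 at mid-ripening and 11.91, 11.48, 12.11 and 9.63 at harvest. Again PSP was highest at veraison in 2007 and lowest at mid-ripening in 2006. The difference to mid-ripening was -0.78 ± 0.68 in 2007 (SE, adjusted p = 0.431) and 4.51 ± 0.68 in 2006 (adjusted p = 0.00027). The difference of the rises was -5.29 (adjusted p = 0.0108), not called without AM (-4.95), CS (-4.99) or MN (-5.17). Harvest exceeded mid-ripening by 2.45 in 2007 (adjusted p = 0.0385), not called without AM (2.67), CS (1.74), MN (2.21) or replicate C (2.12). The set was above the 95th percentile of the random probes on 9, 8 and 12 of 12 arrays at veraison, mid-ripening and harvest in 2007, and on 8, 11 and 12 in 2006. The 2008 levels ran from 6.94 to 9.10 at veraison (median 8.18), from 8.70 to 12.73 at mid-ripening (11.83) and from 9.54 to 12.42 at harvest (11.31).

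Its neighbor VIT_06s0061g00100, annotated as an acidic glucan endo-1,3-beta-glucosidase and also with 4 member probes, had 6.67, 7.42, 9.66 and 11.29 at veraison in AM, CS, MN and PSP of 2007, 6.45, 6.56, 7.52 and 10.46 at mid-ripening and 10.02, 12.34, 11.46 and 10.38 at harvest. For 2006 the values were 6.62, 6.67, 6.93 and 6.86, then 13.35, 12.87, 11.94 and 8.60, then 12.87, 12.69, 12.90 and 10.31. PSP differed from the others in the same way as for the first glucanase, and signal shared between the neighbors was not tested here. The difference to mid-ripening was -1.01 ± 0.83 in 2007 (SE, adjusted p = 0.401) and 4.92 ± 0.83 in 2006 (adjusted p = 0.000655). The rises differed by -5.93 (adjusted p = 0.0168), not called without AM (-5.59), CS (-5.56) or MN (-5.53), and the increase to harvest in 2007 was 3.30 (adjusted p = 0.0248), not called without AM (3.21), CS (2.48), MN (3.09) or replicate C (2.99). The set was above the 95th percentile of the random probes on 7 of 12 arrays at veraison, 5 at mid-ripening and 12 at harvest in 2007, so that its low levels of that year lie close to background, and on 11, 11 and 12 arrays in 2006.

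VIT_06s0004g01990 had 7.78, 8.05, 7.43 and 10.95 at veraison in AM, CS, MN and PSP of 2007, 7.53, 7.60, 8.18 and 10.06 at mid-ripening and 11.82, 13.32, 12.55 and 12.33 at harvest. In 2006 its values were 7.36, 8.08, 6.85 and 8.11 at veraison, 13.83, 14.17, 12.65 and 10.59 at mid-ripening and 13.77, 14.25, 13.60 and 11.81 at harvest. The stages did not overlap between mid-ripening and harvest in 2007, nor between veraison and mid-ripening in 2006. The difference to mid-ripening was -0.21 ± 0.62 in 2007 (SE, adjusted p = 0.835) and 5.21 ± 0.62 in 2006 (adjusted p = 4.4e-05), with a difference between the years of -5.42 (adjusted p = 0.00714; -5.05 and not called without CS). It rose by 4.17 ± 0.62 to harvest in 2007 (adjusted p = 0.00176), a call kept without any 1 vineyard. In 2007 it was above the 95th percentile of the random probes on 10 of 12 arrays at veraison and 9 at mid-ripening.

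The wider defense list had 78 named sets with 312 probes, 5 of them members. Of these probes, 28 were called higher and 25 lower at mid-ripening in 2007, and 91 higher and 14 lower in 2006. Over all gene probes, 8.35% were called higher in 2007 and 7.05% in 2006, so that the 28 of 312 in 2007 were near the share of the array. Lower calls at mid-ripening were not counted over all gene probes. In 2007, 39 were higher at harvest than at mid-ripening and 8 were lower, against 2.17% and 2.21% of all gene probes. A smaller rise to mid-ripening in 2007 than in 2006 was called for 52 and a larger one for 1, against 0.768% and 0.748% of all gene probes. Of the matches behind the names, 1210 came from genes that the study lists as specific to 2006 and 2008 against 2007. A smaller rise in 2007 was thus partly built into the list, and the comparison of years gives no independent result about defense genes.

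The stress and chaperone list held 2 of the members' named sets, and both rose to mid-ripening in 2006 and were not called in 2007. BCS1 (VIT_09s0054g00910), annotated as a mitochondrial chaperone and known in yeast for the assembly of respiratory complex III, had 8.73, 8.00, 9.41 and 8.80 at veraison in AM, CS, MN and PSP of 2007, 9.13, 7.66, 6.95 and 6.79 at mid-ripening and 7.46, 9.03, 8.17 and 7.99 at harvest. In 2006 it had 6.42, 7.25, 6.12 and 6.45 at veraison, 9.76, 9.16, 9.03 and 8.70 at mid-ripening and 8.01, 8.46, 9.36 and 8.07 at harvest. At veraison, the years did not overlap. The difference to mid-ripening was -1.10 ± 0.49 in 2007 (SE, adjusted p = 0.117) and 2.60 ± 0.49 in 2006 (adjusted p = 0.00146), and the rises differed by -3.71 (adjusted p = 0.0129; not called without CS at -4.20, MN at -3.15 or PSP at -3.52). The set was above the 95th percentile of the random probes on 10 of 12 arrays at veraison in 2007 and 8 in 2006. It was 2.18 higher at veraison in 2007 than in 2006 (adjusted p = 0.00564).

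The DnaJ gene VIT_01s0011g04820, with 4 member probes, encodes a co-chaperone of the Hsp70 type of folding machinery. It had 11.47, 11.75, 11.99 and 13.12 at veraison in AM, CS, MN and PSP of 2007, 10.47, 12.24, 12.25 and 12.61 at mid-ripening and 9.49, 12.08, 12.84 and 12.85 at harvest. The values of 2006 were 11.03, 12.18, 10.96 and 10.69 at veraison, 11.38, 13.84, 13.00 and 12.55 at mid-ripening and 9.80, 13.49, 13.41 and 13.50 at harvest. AM had the lowest value at mid-ripening and at harvest in both years. The difference was -0.19 ± 0.51 in 2007 (SE, adjusted p = 0.813) and 1.48 ± 0.51 in 2006 (adjusted p = 0.045; not called without CS at 1.42, MN at 1.29, PSP at 1.35, replicate B at 1.39 or replicate C at 1.43, nor at 1.49 after subtraction of the random-probe median). In 2008, DnaJ was 3.67 to 4.84 higher at mid-ripening than at veraison in 7 of the 8 vineyards outside Soave (all but FA), whereas AM, CC and PM, the 3 Soave vineyards, differed by -0.37, -0.03 and 0.30.

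BAG5 (VIT_01s0146g00150), named after a family of Hsp70 co-chaperones, showed the same split in 2008, with differences of 2.06 to 4.87 outside Soave and of -0.08, 0.40 and -0.15 in AM, CC and PM. In 2007 it had 10.40, 12.38, 11.70 and 12.37 at veraison in AM, CS, MN and PSP, 9.71, 11.75, 10.25 and 11.76 at mid-ripening and 8.31, 11.53, 10.15 and 10.18 at harvest, and in 2006 it had 9.10, 10.62, 10.04 and 9.97, then 9.03, 12.52, 11.31 and 10.55, then 8.01, 11.07, 10.75 and 11.38. No change to mid-ripening was called, with -0.85 ± 0.37 in 2007 (SE, adjusted p = 0.111) and 0.92 ± 0.37 in 2006 (adjusted p = 0.0837). At veraison, BAG5 was 1.78 higher in 2007 than in 2006 (adjusted p = 0.00515).

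The alternative oxidase VIT_02s0033g01380, which passes electrons from ubiquinol to oxygen outside the cytochrome pathway, was lower at mid-ripening in 2007 and higher in 2006. It had 9.59, 9.31, 10.96 and 10.59 at veraison in AM, CS, MN and PSP of 2007, 9.15, 9.33, 8.99 and 9.25 at mid-ripening and 8.75, 9.40, 9.66 and 9.09 at harvest. In 2006 the values were 8.93, 9.75, 9.66 and 9.76, then 10.46, 10.20, 10.72 and 10.01, then 9.39, 10.22, 10.58 and 9.46. MN and PSP carried the fall of 2007, while CS changed little. The change was -0.93 ± 0.29 in 2007 (SE, adjusted p = 0.0308; not called without MN at -0.59, PSP at -0.80 or replicate B at -0.74) and 0.82 ± 0.29 in 2006 (adjusted p = 0.049), which was not called without any 1 of the vineyards (0.58 to 1.01), without replicate A (0.81) or C (0.86), or after subtraction of the random-probe median (0.84). The rises differed by -1.75 (adjusted p = 0.0304), likewise not called without any 1 of them (-2.19 to -1.33) or without replicate A (-1.88).

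The monooxygenase VIT_04s0044g00230 was the other named gene called lower at mid-ripening in 2007, by -0.98 ± 0.20 (SE, adjusted p = 0.00314), and it rose by 1.83 ± 0.20 in 2006 (adjusted p = 2.05e-05). It moved down in 4 of 4 vineyards in 2007 and up in 4 of 4 in 2006, and the rises differed by -2.82 ± 0.28 (adjusted p = 0.000616; -2.72 and not called without CS).

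The respiratory burst oxidase VIT_14s0060g02320, a plasma membrane NADPH oxidase that produces superoxide, had 4 member probes but no called change in either year. In 2007 its level was 12.45, 12.53, 12.01 and 11.43 at veraison in AM, CS, MN and PSP, 12.67, 12.17, 11.83 and 10.57 at mid-ripening and 12.63, 12.53, 10.39 and 10.27 at harvest, and in 2006 it was 10.27, 10.83, 10.52 and 11.32, then 12.59, 11.19, 11.45 and 11.13, then 11.30, 11.89, 12.13 and 12.20. PSP moved down to mid-ripening in both years. The difference was -0.29 ± 0.37 in 2007 (SE, adjusted p = 0.596) and 0.86 ± 0.37 in 2006 (adjusted p = 0.108). In 2008 it was higher at mid-ripening in 11 of 11 vineyards, and its change to harvest was -1.11, -1.58 and -2.11 in AM, CC and PM and 0.05 to 2.05 in the others.

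The carrier VIT_18s0001g07320, annotated to exchange 2-oxoglutarate and malate, had no called change, with -0.47 ± 0.20 in 2007 (SE, adjusted p = 0.104) and 0.22 ± 0.20 in 2006 (adjusted p = 0.472). Its levels were 11.39, 11.64, 11.46 and 12.98 at veraison and 11.20, 11.77, 10.93 and 11.66 at mid-ripening in AM, CS, MN and PSP of 2007, and 10.87, 11.42, 11.46 and 12.63 at veraison and 11.38, 11.88, 11.82 and 12.19 at mid-ripening in 2006. PSP was highest at veraison in both years. Harvest levels ran from 10.94 to 11.93 in 2007 and from 10.42 to 11.88 in 2006.

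The phosphate-induced protein VIT_18s0001g06170, of a family first described in tobacco cells, rose in both years. In 2007 it had 12.40, 12.93, 12.00 and 12.67 at veraison in AM, CS, MN and PSP, 13.62, 13.09, 13.08 and 12.69 at mid-ripening and 13.63, 13.53, 12.82 and 12.70 at harvest. In 2006 it had 12.00, 12.28, 12.03 and 12.14 at veraison, 13.74, 13.33, 12.77 and 13.19 at mid-ripening and 12.90, 12.92, 13.06 and 13.32 at harvest. PSP hardly moved in 2007. The rise was 0.62 ± 0.21 in 2007 (SE, adjusted p = 0.0486), which was not called without any 1 of the vineyards (0.42 to 0.82), without replicate A (0.62) or C (0.50), or after subtraction of the random-probe median (0.63), and 1.14 ± 0.21 in 2006 (adjusted p = 0.00137).

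For the first 4 genes with no annotation given here, the rise was not called as different between the years (rise in 2007 minus rise in 2006 of 0.80 for VIT_11s0016g00330, 0.66 for VIT_13s0067g00890, 0.56 for VIT_10s0071g00320 and 1.18 for VIT_10s0003g01460, adjusted p from 0.18 to 0.562). VIT_11s0016g00330 had 7.45, 6.61, 5.16 and 5.64 at veraison in AM, CS, MN and PSP of 2007, 10.26, 10.63, 8.31 and 8.07 at mid-ripening and 10.58, 10.07, 10.06 and 9.59 at harvest. In 2006 it had 8.37, 9.21, 7.39 and 8.06 at veraison, 11.11, 10.32, 10.47 and 10.34 at mid-ripening and 10.19, 10.35, 10.45 and 11.11 at harvest. Veraison and mid-ripening did not overlap in either year, and each vineyard was lower at veraison in 2007. The rise was 3.10 ± 0.39 in 2007 (SE, adjusted p = 0.00018) and 2.30 ± 0.39 in 2006 (adjusted p = 0.00063), both called without any 1 vineyard. The level at veraison in 2007 was 2.04 below that of 2006 (adjusted p = 0.0065), with the set above the 95th percentile of the random probes on 3 of 12 arrays there.

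VIT_13s0067g00890 had 11.23, 11.19, 8.13 and 9.04 at veraison in AM, CS, MN and PSP of 2007, 12.06, 12.52, 11.78 and 12.12 at mid-ripening and 12.64, 12.85, 12.88 and 12.86 at harvest. Its values in 2006 were 10.65, 11.88, 10.42 and 10.68, then 11.99, 12.77, 12.69 and 12.45, then 12.56, 12.94, 12.73 and 12.55. Both years ended within a narrow range, and MN and PSP started lowest in 2007. The rise was 2.22 ± 0.43 in 2007 (SE, adjusted p = 0.00259) and 1.57 ± 0.43 in 2006 (adjusted p = 0.0146; 1.50 and not called without PSP).

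VIT_10s0071g00320, with 3 member probes, had 10.10, 9.96, 8.28 and 9.25 at veraison in AM, CS, MN and PSP of 2007, 11.79, 10.69, 11.58 and 10.56 at mid-ripening and 11.83, 11.60, 11.76 and 11.57 at harvest. In 2006 the values were 10.37, 11.14, 10.33 and 10.64, then 12.22, 11.57, 11.76 and 11.71, then 12.49, 11.85, 12.27 and 12.34. Mid-ripening lay above veraison in all 4 vineyards of both years. It rose by 1.75 ± 0.32 in 2007 (SE, adjusted p = 0.00204) and by 1.20 ± 0.32 in 2006 (adjusted p = 0.0135; not called without AM at 0.98 or PSP at 1.24), and started 1.22 lower in 2007 (adjusted p = 0.0162).

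VIT_10s0003g01460 rose by 2.06 ± 0.35 in 2007 (SE, adjusted p = 0.00114) and was not called in 2006 (0.88 ± 0.35, adjusted p = 0.0746). The reverse calls, in 2006 only, were made for VIT_18s0001g15250, listed with no hit and with 4 member probes, for VIT_11s0016g04270 and for VIT_14s0068g00970, and here too the difference between the years was not called (-1.93, -1.25 and -0.76, adjusted p = 0.0984, 0.195 and 0.336). VIT_18s0001g15250 had 9.38, 10.07, 10.44 and 11.35 at veraison in AM, CS, MN and PSP of 2007, 8.85, 9.61, 10.69 and 10.87 at mid-ripening and 7.71, 9.89, 10.91 and 11.11 at harvest, and in 2006 it had 9.67, 10.11, 8.90 and 8.87, then 10.11, 12.35, 10.84 and 10.74, then 8.68, 12.01, 11.20 and 11.55. Only MN moved up to mid-ripening in 2007, and all 4 did in 2006. The difference was -0.31 ± 0.45 in 2007 (SE, adjusted p = 0.649) and 1.62 ± 0.45 in 2006 (adjusted p = 0.0153; not called without CS at 1.42, MN at 1.52 or PSP at 1.54). VIT_11s0016g04270 had differences of 0.72 in 2007 (adjusted p = 0.182) and 1.97 in 2006 (adjusted p = 0.00166), and VIT_14s0068g00970 had 0.55 in 2007 (adjusted p = 0.212) and 1.31 in 2006 (adjusted p = 0.00644; 1.21 and not called without MN).

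VIT_10s0003g03810, with 3 member probes, did not repeat its course of 2008, when it was higher at mid-ripening in 11 of 11 vineyards, by 1.30 to 4.21. It had 11.93, 12.22, 11.73 and 13.31 at veraison in AM, CS, MN and PSP of 2007, 12.44, 12.39, 13.01 and 13.05 at mid-ripening and 12.45, 12.38, 12.82 and 13.12 at harvest, and in 2006 it had 12.94, 13.16, 13.07 and 13.45, then 13.10, 13.09, 13.00 and 13.40, then 12.44, 12.63, 12.91 and 13.28. In 2006 it was already at its mid-ripening level at veraison, and it was 0.86 lower at veraison in 2007 (adjusted p = 0.00745). The difference to mid-ripening was 0.42 ± 0.19 in 2007 (SE, adjusted p = 0.11) and -0.01 ± 0.19 in 2006 (adjusted p = 0.979).

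The probes with the highest and second highest score belong to sets that could not be named. The set of VitusP00279470 had 6.78, 7.96, 6.00 and 8.00 at veraison in AM, CS, MN and PSP of 2007, 14.31, 13.80, 11.98 and 13.38 at mid-ripening and 14.64, 14.54, 14.66 and 14.46 at harvest. In 2006 it had 10.69, 10.47, 6.97 and 7.57 at veraison, 14.37, 14.46, 14.52 and 14.38 at mid-ripening and 14.50, 14.71, 14.57 and 14.70 at harvest. It came close to its final level by mid-ripening in every vineyard of 2006, from veraison levels that differed widely. The rise was 6.18 ± 0.60 in 2007 (SE, adjusted p = 4.31e-05) and 5.50 ± 0.60 in 2006 (adjusted p = 2.32e-05). It was above the 95th percentile of the random probes on 5 of 12 arrays at veraison in 2007 and on 11 in 2006, so that the rise of 2007 was measured from a level mostly not above background. The 11 vineyards of 2008 ran from 7.97 to 12.97 at veraison (median 11.39), from 13.96 to 14.28 at mid-ripening (14.13) and from 14.24 to 14.63 at harvest (14.36).

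The set of VitusP00233220 had 11.21, 11.12, 10.50 and 12.30 at veraison in AM, CS, MN and PSP of 2007, 12.40, 12.15, 12.80 and 12.81 at mid-ripening and 11.82, 12.22, 12.92 and 13.38 at harvest. The levels of 2006 were 12.11, 12.65, 12.41 and 12.85, then 13.38, 13.23, 13.43 and 13.73, then 12.80, 12.76, 13.45 and 13.62. All vineyards moved up to mid-ripening, and all started lower in 2007. The rise was 1.26 ± 0.25 in 2007 (SE, adjusted p = 0.00327) and 0.94 ± 0.25 in 2006 (adjusted p = 0.0131; 0.83 and not called without AM).

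Within 2008, the size of the rise and the course to harvest varied between vineyards, and since these contrasts chose the members they are given without a test. The median rise over the 200 probes ran from 1.32 in AM, which had the highest median level at veraison (9.44), to 4.04 in VM, which had the lowest (6.97). The median change to harvest was -1.06 in PM, -0.67 in AM and -0.35 in CC, the 3 Soave vineyards, and ran from -0.27 in CS to 0.77 in BM elsewhere. In PM, no slide of 2008 held arrays of more than 1 stage, and in PSP none held both mid-ripening and harvest. Slide and stage cannot be told apart there. In BM 163 of the 200 probes were higher at harvest than at mid-ripening, and in PM 63 were. A level course in the average of 11 vineyards thus holds vineyards that went down and vineyards that went up.

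By vineyard, the XTH and the PR1 group compared as follows. From mid-ripening to harvest of 2008, all 10 XTH sets went down in AM, CC and PM (-2.55 to -1.27), and all went up in BM (0.62 to 1.28). PR1 moved up most in BM (4.70) and MN (4.64) and least in CS (0.01), and the glucanase VIT_06s0061g00120 moved up most in MN (2.88) and BM (2.83) and was lowest in CS (-1.88). BM thus went up in both groups, and in AM the glucanase went down (-1.06) as the XTH sets did. In CC and PM the glucanase changed by -0.06 and 0.84, and PR1 went up in all 3 Soave vineyards (0.55, 1.51 and 3.03 in AM, CC and PM). Across the 33 combinations of vineyard and stage in 2008, with each stage's mean taken out, the 10 XTH sets correlated among themselves with a median r of 0.83, and the PR1, glucanase and VIT_06s0004g01990 sets with 0.89. Between the groups the median was 0.35, and over all pairs of the 95 sets 0.30. Over the 24 combinations of 2006 and 2007, the medians were 0.67 within the XTH sets, 0.88 within the PR1 group, -0.30 between them and 0.12 over all pairs. These values come from the same arrays for every pair. The PR1 group was put together by its course in the 2006 and 2007 values, so its correlation in those years gives no independent result.

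Differences between vineyards that last over all 3 stages did not enter the score, which used averages over vineyards. With stage as a term, 32 of the 200 probes (16.0%) differed between the 11 vineyards of 2008 at an adjusted p below 0.05, against 36.2% of all gene probes. The share among the members was below that of the array in this fit. With single arrays as the unit and the slide as a random block it was above, at 46.5% against 27.3%. The members were chosen for large stage differences in the same 2008 values. Differences between vineyards in the size of the rise enter the residual of this test, so its shares give no result about the members. The random control probes also varied at veraison of 2008, their 95th percentile running from 5.80 to 9.42 over the arrays, and between 44 and 198 of the 200 members exceeded it there. The part of this background in the vineyard values was not tested.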

How the data were processed

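Cy3-labeled berry RNA was hybridized to NimbleGen arrays by the authors, and the deposited values are linear fluorescence intensities per probe, normalized over the arrays by the authors (RMA per the labels, version not given in the sources used here). The table held 139363 rows for 171 arrays on 19 slides: 117999 gene probes, 19605 random control probes and 1759 rows without values. Arrays were assigned by their titles. The log2 was taken, with no background subtraction. Median intensities were alike (432 to 483), but the 95th percentile of the random control probes ran from 5.17 to 9.42 over the arrays. Subtraction of the random-probe median was run as an alternative.

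Tests used limma 3.58.1 in R 4.3.3 on triplicate means, 24 in 2006 and 2007. Comparisons of stages, and of the rises between years, had vineyard within year as a block (12 residual degrees of freedom). Differences in level between 2007 and 2006, such as those at veraison, cannot be estimated with that block. They came from a separate fit of year by stage, with its own standard errors. Benjamini-Hochberg adjustment was over all gene probes or, for genes, over 29552 probe sets, and an adjusted p below 0.05 was a call. The tests were tried on simulated data. Vineyards are the unit, so precision is limited by 4 a year. No 2 arrays of a group were duplicates.

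Probe sets were rebuilt from probe numbers, and 5329 were named by matching profiles to values printed in the study's supplementary tables, 64 of them by stage averages only. In 5309 of 5328 consecutive named sets, gene numbers lay on the same chromosome. The members and gene lists were chosen with earlier results of these data known. All named genes are given by group, with vineyard values for up to 3 per group by member probes, the 5 largest and smallest mean rises, and up to 5 per call to harvest or between years. The other named genes have their differences only. Alternatives were other list sizes and memberships, thresholds, offsets, filters and normalizations, single arrays, blocks for replicate and slide, and removal of each vineyard or replicate. Alternatives for single genes were added after the data were seen.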

Additional observations from a re-analysis of the deposited data

Results flagged for a closer look

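The difference between the growth years in the rise to mid-ripening was called by the interaction test for 12.5% of the 200 probes, all with a smaller rise in 2007 than in 2006. By gene, the difference (rise in 2007 minus rise in 2006) was called for 11 named sets: -7.19 for VIT_03s0088g00710 (PR1), -5.93 for VIT_06s0061g00100, -5.42 for VIT_06s0004g01990, -5.29 for VIT_06s0061g00120, -3.71 for VIT_09s0054g00910, -2.82 for VIT_04s0044g00230, -1.75 for VIT_02s0033g01380, -1.42 for VIT_11s0052g01300, -1.35 for VIT_11s0052g01320, -1.25 for VIT_04s0044g01420 and -1.13 for VIT_11s0052g01260. All 11 lost their call without CS, with the same sign (-6.62 and an adjusted p of 0.0584 for PR1).

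Among 128 tests of 4 vineyards each, 9 found a vineyard far from the other 3 by Dixon's criterion, a share near the 1 in 20 that chance gives. In 2007, MN stood apart in the rise of VIT_01s0146g00150 (-1.45) and of VIT_18s0001g15250 (0.25), and AM in the change to harvest of VIT_09s0054g00910 (-1.66) and of VIT_18s0001g15250 (-1.14). In 2006, PSP stood apart in the rise of VIT_06s0004g01990 (2.49) and of VIT_18s0001g07320 (-0.44), AM in the rise of VIT_10s0003g03810 (0.16) and in the change to harvest of VIT_14s0060g02320 (-1.29), and MN in the change to harvest of VIT_04s0044g00230 (-0.21).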

How the results depend on the processing

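Shares are percentages of the members called. Shares over all gene probes under the same settings are not given in this section, so a larger or smaller share need not be particular to the members. Of 150 results under settings other than leaving out a library, 109 stayed within 1.5 times the main share and 41 did not. The rise to mid-ripening kept its direction and stayed within 1.5 times in each of these settings in both years, although with each year fitted alone the share for harvest over mid-ripening in 2007 was 2.5% (the year comparisons were not run in that fit). Fitted on single arrays, the shares were 73.5% (2007) and 95.0% (2006) for the rise, 37.0% and 4.5% for higher and 1.5% and 5.5% for lower at harvest, 41.0% for a smaller and 4.5% for a larger rise in 2007, 32.0% and 27.5% for lower and higher at veraison in 2007, and 79.0% for vineyards. With the replicate letter as a block on single arrays, they were 73.5% and 95.0%, 35.5% and 4.5%, 1.0% and 5.5%, 41.0%, 4.5%, 23.0%, 16.5% and 77.0%. The letters do not pair arrays: same-letter arrays had a median correlation of 0.01 in 2007 and -0.01 in 2006, and 16 of 36 and 9 of 36 arrays correlated best with their own letter. With the slide as a random block, the shares were 74.0% and 95.5%, 32.5% and 7.0%, 1.5% and 7.5%, 39.0%, 4.5%, 25.0%, 29.5% and 46.5%. Arrays, unlike vineyards, are not the unit here, and the slide correlation was 0.38 in the stage model and 0.45 in the model of year by stage. The PSP stages of 2007 lie on 3 different slides, veraison together with the PSP arrays of 2006, so that slide and stage cannot be told apart there.

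At an adjusted p below 0.01, 6.5% were higher at harvest in 2007, 1.5% had a smaller rise, 4.0% were lower and 2.5% higher at veraison, and 3.5% differed between vineyards. After subtraction of the random-probe median, 6.0% had a smaller rise and 9.0% differed between vineyards. Counted by probe set, 18.9% were higher at harvest in 2007. Members chosen after adding 50 gave 9.5% for vineyards, the top 100 members 5.0%, the top 400 a larger rise for 0.25%, and members chosen on 7 vineyards a smaller rise for 8.0% and a larger one for 0.50%.

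Leaving out a vineyard or replicate gave 4.0% to 13.0% higher at harvest in 2007, 0% to 10.5% with a smaller rise, 1.0% to 15.0% lower and 2.0% to 8.0% higher at veraison, 9.5% to 17.0% for vineyards, 38.5% to 53.0% for the rise in 2007 and 65.0% to 83.0% in 2006. Of 58 gene results past the threshold, 29 lost the call under no setting and 0 reversed.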
